A study of Mus musculus with 18 samples.

Results

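DNA replication and S phase are described here through 50 genes in 6 mouse cell lines grown from malignant peripheral nerve sheath tumors (MPNSTs), a sarcoma of the nerve sheath. The genes were chosen by name, and all 50 were found among the 35275 genes of the read-count table. All 50 also passed the filter on low counts, which left 15207 genes. RNA-seq was run on each line plated in triplicate (3 cultures, 18 libraries in all), and each line came from its own tumor. The tumors were raised in wild-type 129 Sv/Jae mice, whose sciatic nerve received adenovirus carrying guide RNAs and Cas9 under a CMV promoter, which is not restricted to 1 cell type. In 3 lines the guides were directed at *Nf1* and *p53* (*Nf1*-/-;*p53*-/-, here the *Nf1*/*p53* dKO), and in 3 lines at *Nf1* and *Cdkn2a* (*Nf1*-/-;*Cdkn2a*-/-, here the *Nf1*/*Cdkn2a* dKO), so that *Nf1* deletion was common to all 6 lines. No line without edits or with *Nf1* deleted alone is part of the comparison. The cells grew untreated in DMEM with 10% FBS, 1% penicillin (penicillin-streptomycin in the study's methods) and 1% sodium pyruvate. The labels call the lines mesenchymal. The question was how far the genotypes differ in the expression of replication genes, and how much of that difference each single line carries.

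Before DNA synthesis, the origin recognition complex (ORC), *Cdc6* and *Cdt1* load the MCM2-7 helicase onto origins. The kinases *Cdc7*-*Dbf4* and cyclin E-*Cdk2* then switch the helicase on with the help of *Cdc45* and the GINS complex, and DNA polymerases alpha, delta and epsilon copy the strands behind it. Transcription of most of these genes is driven by E2F factors, which the retinoblastoma protein restrains. *Cdkn2a* encodes p16, which acts through the retinoblastoma protein, and p19ARF, which acts through *p53*.

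The upstream sequence of these genes is shown first, because E2F factors bind the motif TTTNNCGC and the factor NF-Y binds the CCAAT box CCAAT. RefSeq windows of 300 bases around the start of transcription (build GRCm38.p6) were given for 40 of the 50 genes. The motif TTTNNCGC was found on either strand in 17 of these 40 windows, 42.5%, and in 1602 of the 27025 genes with a window, 5.93%. In the 250 bases before the start alone it was found in 10 of 40, 25.0%, against 4.94% of all. CCAAT was found there in 24 of 40, 60.0%, against 37.5% of all. The stretches that follow were chosen for genes whose levels were lower in the *Nf1*/*Cdkn2a* dKO (*Pola1*, *Mcm10*, *Chaf1a*), high mainly in 1 line (*Mcm5*) or close between the genotypes (*Mcm6*, *Cdc25a*). Capitals mark the motif or its reverse complement, and each stretch is written 5′ to 3′ on the strand of its gene. TTTNNCGC is marked in *Pola1* (chrX:93632254-93632325 on the minus strand), *Mcm5* (chr8:75109324-75109395 on the plus strand), *Mcm6* (chr1:128359713-128359784 on the minus strand) and *Cdc25a* (chr9:109875480-109875551 on the plus strand). CCAAT is marked in *Mcm10* (chr2:5012853-5012921 on the minus strand) and *Chaf1a* (chr17:56040303-56040371 on the plus strand).
Pola1: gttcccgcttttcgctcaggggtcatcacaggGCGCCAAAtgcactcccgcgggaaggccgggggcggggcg
Mcm5: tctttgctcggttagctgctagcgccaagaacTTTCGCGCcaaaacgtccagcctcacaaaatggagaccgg
Mcm6: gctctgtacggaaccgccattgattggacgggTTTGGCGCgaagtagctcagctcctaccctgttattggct
Cdc25a: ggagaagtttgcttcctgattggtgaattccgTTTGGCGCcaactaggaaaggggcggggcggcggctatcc
Mcm10: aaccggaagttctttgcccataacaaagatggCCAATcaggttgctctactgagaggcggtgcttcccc
Chaf1a: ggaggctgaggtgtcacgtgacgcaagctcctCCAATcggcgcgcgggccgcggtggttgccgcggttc

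In the *Mcm5* stretch the motif on the opposite strand overlaps the marked letters. The 17 genes with TTTNNCGC in the 300 bases had a median log2 fold change of -0.46 between the genotypes, and the 23 genes with a window but without it -0.51. The 10 genes without a window had a median of -0.25. A match of letters is a description of the sequence and does not show that a factor bound there.

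Total counts per library were 19560535 to 28312207, and the counts summed over the cultures of a line 65206479 to 73065228. *Trp53* stood at 94.1, 67.5 and 58.7 CPM (counts scaled to a common library size, here with TMM) in the *Nf1*/*p53* dKO lines and at 247, 246 and 185 CPM in *Nf1*/*Cdkn2a* dKO lines 1 to 3, and it passed the test (log2 fold change 1.62, adjusted p = 0.0361, and with 1 line left out 0.0436 without *Nf1*/*p53* dKO line 1 and 0.0671 to 0.124 without any other). Levels of *Cdkn2a* and *Nf1* overlapped between the genotypes. *Cdkn2a* was at 363, 279 and 42.9 CPM in *Nf1*/*p53* dKO lines 1 to 3 and at 169, 392 and 285 CPM in *Nf1*/*Cdkn2a* dKO lines 1 to 3. *Nf1* was at 70.0, 33.5 and 27.7 CPM and at 12.7, 38.3 and 16.2 CPM in the same order. A count over a whole gene does not show whether an edited gene still makes its protein. Of 7 mesenchymal markers, *Vim* was at 4727 CPM or more in every line, while Thy1 ran from 7.02 to 467 CPM and Col1a1 from 302 to 4173 CPM. Of 7 Schwann cell markers, *Sox10* did not exceed 0.0990 CPM in any line, but Ngfr was at 64.3 CPM in *Nf1*/*p53* dKO line 2 and Foxd3 at 5.45 CPM in *Nf1*/*p53* dKO line 1. Markers of leukocytes and of endothelium summed to at most 8.39 and 2.13 CPM in any line.

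Replication genes were lower in the *Nf1*/*Cdkn2a* dKO than in the *Nf1*/*p53* dKO across nearly all steps of replication. Of the 50 genes, 46 had a log2 fold change below 0, where 51.8% of all genes tested did, and with raw total counts in place of TMM scaling *Pola2* and *Cdc25a* were also below 0, which made 48 where 61.9% of all genes did. The median log2 fold change was -0.42 over the 50 genes and -0.023 over all genes tested. TMM, which scales libraries so that most genes agree, gave factors of 1.02 to 1.06 to the *Nf1*/*p53* dKO lines and of 0.941 to 0.967 to the *Nf1*/*Cdkn2a* dKO lines. With raw totals these medians were -0.56 and -0.16, and the distance between them was -0.40 in both scalings. Other library factors move all genes by nearly the same amount, so this distance could hardly change. All 3 *Nf1*/*Cdkn2a* dKO lines lay below all 3 *Nf1*/*p53* dKO lines for 25 of the 50 genes, against 16.6% of all genes, and the opposite order was seen for 0 of the 50. The summed level of the 50 genes was 3968, 3810.1 and 4871 CPM in *Nf1*/*p53* dKO lines 1 to 3 and 3509.9, 3153 and 2924 CPM in *Nf1*/*Cdkn2a* dKO lines 1 to 3, with no overlap.

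No single gene of the 50 passed edgeR's quasi-likelihood test across the 6 lines, in which 1.8% of all genes were called in either direction at an adjusted p under 0.05. The lowest adjusted p was 0.0543, for *Rfc4*. At an unadjusted p under 0.05, 19 of the 50 were lower and 0 higher, where 12.5% of all genes tested were lower at that level. DESeq2 on the same 6 lines called 6 of the 50 (*Rfc3*, *Rfc4*, *Mcm10*, *Pole*, *Chaf1a* and *Rpa1*), all lower, a share no larger than the 12% of all genes with an adjusted p that it called in either direction. EdgeR with raw total counts called 3 (*Rfc3*, *Rfc4* and *Pole*), where it called 2.78% of all genes. With the 18 cultures taken as separate samples, although cultures of 1 line share a tumor, edgeR and DESeq2 each called 32 of the 50, against 46.5% and 39.3% of all genes. The limma-voom fit with lines as random effects called 17, against 16.6% of all genes. These are bulk samples, in which fewer cells in S phase and less of each RNA per cell cannot be told apart.

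**Figure D1:**
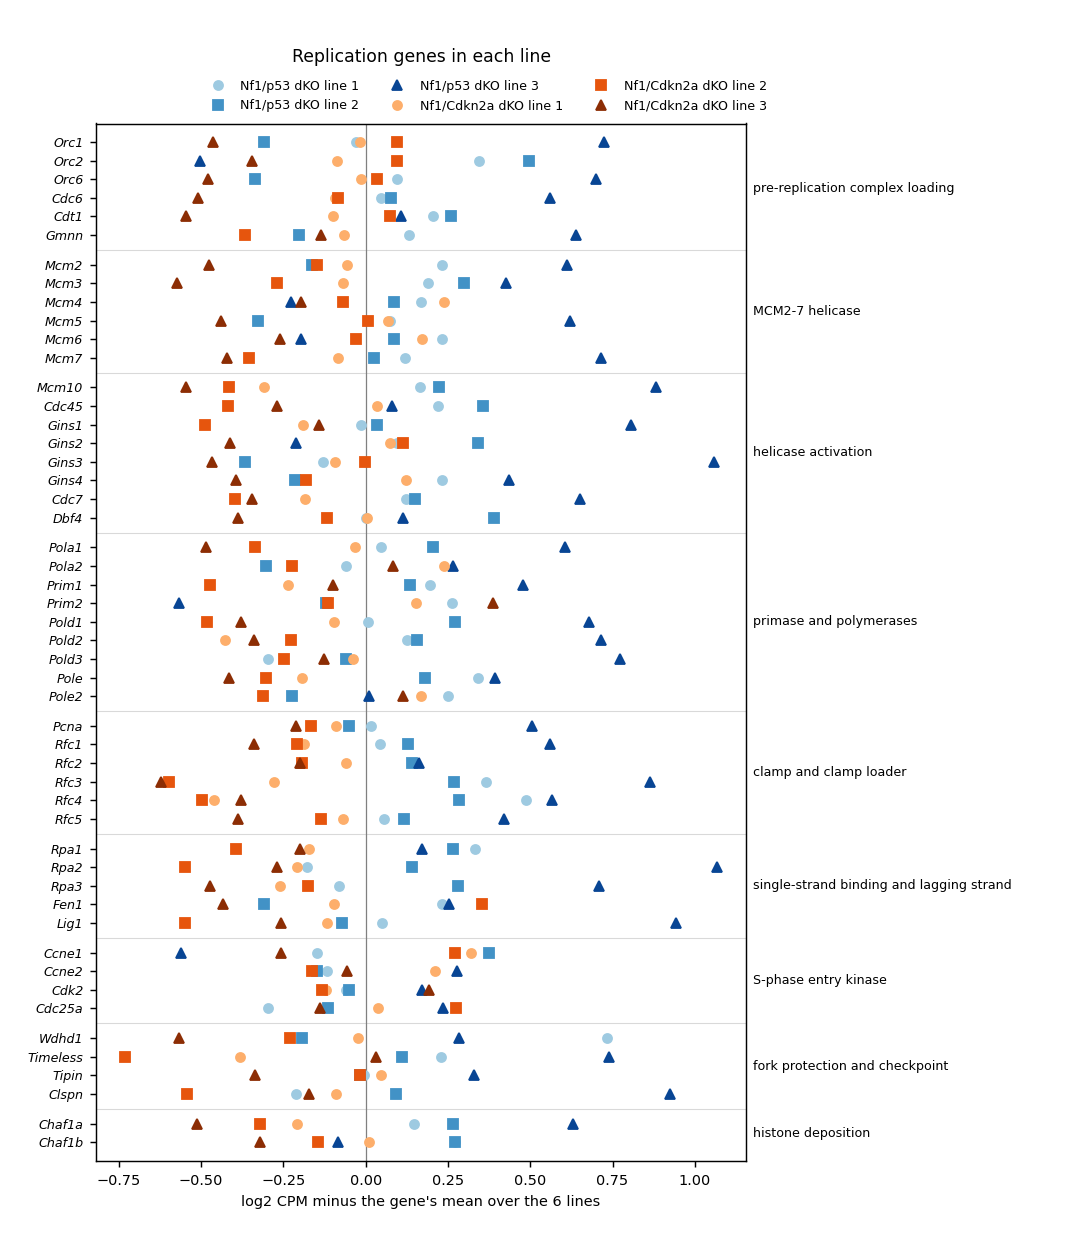
Level of each of the 50 replication genes in each line, as log2 CPM minus the mean of that gene over the 6 lines, with genes on the y axis ordered by role and 1 point per line (counts summed over 3 cultures). Nf1/p53 dKO line 3 (dark blue triangles) is the highest line for 34 genes, and Nf1/Cdkn2a dKO line 3 (dark brown triangles) the lowest for 27.

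The difference was not carried evenly by the 6 lines. *Nf1*/*p53* dKO line 3 was the highest of the 6 for 34 of the 50 genes and the lowest for 4. Over all genes tested it was the highest for 25.9% and the lowest for 25.5%. For the 50 genes, its median deviation from the mean of the 6 lines was 0.49 on the log2 scale, against 0.12 and 0.10 in *Nf1*/*p53* dKO lines 1 and 2. Among the *Nf1*/*Cdkn2a* dKO lines the median deviations were -0.076, -0.20 and -0.34 for lines 1, 2 and 3. *Nf1*/*Cdkn2a* dKO line 3 was the lowest of the 6 for 27 genes and line 2 for 15, where these lines were the lowest for 16.9% and 17.9% of all genes tested. The 6 medians therefore stood in 2 groups without overlap, with *Nf1*/*Cdkn2a* dKO line 1 and *Nf1*/*p53* dKO line 2 as nearest neighbors. The SD of the 3 line medians within a genotype, pooled over the genotypes, was 0.182, so that those neighbors differed by less than the spread between lines of a genotype.

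Leaving out *Nf1*/*p53* dKO line 3 moved the median log2 fold change of the 50 genes from -0.42 to -0.28, and 40 of 50 remained below 0, where 50.8% of all genes were then below 0. Without it the groups did not overlap, with the *Nf1*/*Cdkn2a* dKO lower, for 27 of the 50 genes, against 22.2% of all genes tested in those 5 lines. Without *Nf1*/*Cdkn2a* dKO line 3 the median was -0.35 and 41 genes were below 0. Leaving out *Nf1*/*p53* dKO line 1, *Nf1*/*p53* dKO line 2, *Nf1*/*Cdkn2a* dKO line 1 or *Nf1*/*Cdkn2a* dKO line 2 gave medians of -0.46, -0.51, -0.49 and -0.44, each at least as far from 0 as with all 6 lines. For 33 of the 50 genes *Nf1*/*p53* dKO line 3 was the line whose removal brought the value nearest to 0 or past it, and for 9 it was *Nf1*/*Cdkn2a* dKO line 3. Among the 36 genes with a log2 fold change of -0.3 or lower, removal of *Nf1*/*p53* dKO line 3 took away more than 50% of the value for 10, removal of *Nf1*/*Cdkn2a* dKO line 3 for 1, and removal of any of the other 4 lines for 0. Neither the line whose removal mattered most nor the part of the value lost was counted over all genes tested. No gene of the 50 passed the test of edgeR in any of the 6 fits with 1 line left out. Those fits called few genes at all, 0 to 172 of the 15549 to 15872 tested. At an unadjusted p under 0.05, 20, 19 and 15 of the 50 were lower without *Nf1*/*p53* dKO lines 1, 2 and 3, against 11.4%, 11.3% and 11.7% of all genes. Without *Nf1*/*Cdkn2a* dKO lines 1, 2 and 3 the numbers were 14, 9 and 10, against 9.77%, 9.4% and 10.6% of all genes.

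Each line was also set alone against the 3 lines of the other genotype. The median difference over the 50 genes, written as *Nf1*/*Cdkn2a* dKO minus *Nf1*/*p53* dKO on the log2 scale, was -0.28, -0.31 and -0.74 for *Nf1*/*p53* dKO lines 1, 2 and 3. For *Nf1*/*Cdkn2a* dKO lines 1, 2 and 3 it was -0.27, -0.36 and -0.55. The number of genes lower in the *Nf1*/*Cdkn2a* dKO in these 6 comparisons was 44, 37, 44, 41, 45 and 46 of 50. Over the 9 pairs of 1 line of each genotype, the median ran from -0.15 for line 1 against line 1 to -0.82 for line 3 against line 3, and 32 to 44 genes were lower. All 9 pairs thus had the same direction, although they share lines and are not independent.

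Genes of G2 and M phase were also high in *Nf1*/*p53* dKO line 3. All 20 genes of a G2 and M list, *Mki67*, *Top2a* and *Cdk1* among them, had a log2 fold change below 0. Their median of -0.34 became -0.053 without *Nf1*/*p53* dKO line 3. In edgeR's test on the 6 lines 0 of the 20 passed, where 1.8% of all genes did. At an unadjusted p under 0.05 in that test 3 of the 20 were lower, where 12.5% of all genes tested were. DESeq2 on the 6 lines also called 0 of the 20, limma-voom with lines as random effects 5, and edgeR and DESeq2 on the 18 cultures 12 each. Of all genes, these fits called 12%, 16.6%, 46.5% and 39.3%. Their summed level was 3003, 3148 and 5221 CPM in *Nf1*/*p53* dKO lines 1 to 3 and 3226, 2453 and 3211 CPM in *Nf1*/*Cdkn2a* dKO lines 1 to 3, so that these overlapped. The median deviation of the G2 and M genes was 0.65 in *Nf1*/*p53* dKO line 3 and -0.45 in *Nf1*/*Cdkn2a* dKO line 2, and within 0.091 of 0 in the other 4 lines. In *Nf1*/*Cdkn2a* dKO line 3 the replication genes stood at -0.34 and the G2 and M genes at -0.067. The part of a different share of dividing cells in the replication gene values was not tested.

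**Figure D2:**
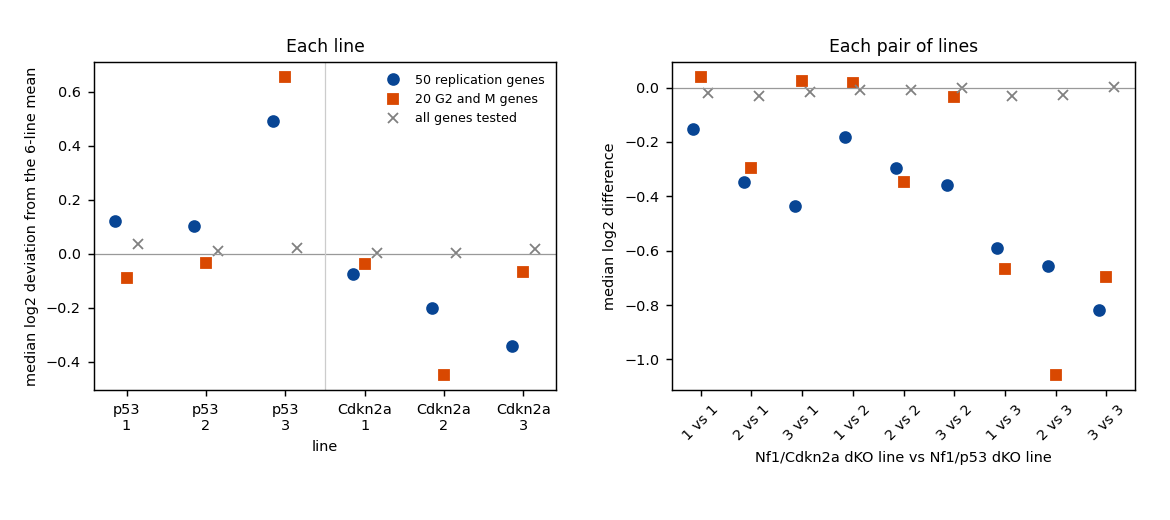
Left, median log2 deviation from the mean of the 6 lines for the 50 replication genes, 20 G2 and M genes and all genes tested, in each line. Right, median log2 difference for each of the 9 pairs of lines (Nf1/Cdkn2a dKO line number vs Nf1/p53 dKO line number). The replication gene median is below 0 in all 9 pairs, from -0.15 to -0.82, while the G2 and M median is -0.67 to -1.06 in the 3 pairs with Nf1/p53 dKO line 3, -0.30 and -0.35 in the other 2 pairs with Nf1/Cdkn2a dKO line 2, and -0.035 to 0.038 in the remaining 4.

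For most of the 50 genes, cultures of a line varied little beside the lines. The SD of log2 CPM between the 3 cultures of a line had a median of 0.0847 over the 50 genes, against 0.297 between the *Nf1*/*p53* dKO lines and 0.212 between the *Nf1*/*Cdkn2a* dKO lines. The spread was larger among the *Nf1*/*p53* dKO lines than among the *Nf1*/*Cdkn2a* dKO lines for 36 of the 50 genes. It was larger among the *Nf1*/*p53* dKO lines than between cultures for 46. The exceptions were *Rfc4* (SD 0.197 between cultures and 0.138 between *Nf1*/*p53* dKO lines), *Pole* (0.135 and 0.105), *Rfc2* and *Fen1*. Set beside the *Nf1*/*Cdkn2a* dKO lines, cultures varied more for the same genes and for *Cdc7*, *Pcna* and *Pold3*.

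The pre-replication complex genes belong to helicase loading, which *Gmnn* inhibits and the others carry out in G1. All 6 were below 0, with 2 free of overlap, against 16.6% of all genes. Their median was -0.36, and it was -0.21 without *Nf1*/*p53* dKO line 3 and -0.20 without *Nf1*/*Cdkn2a* dKO line 3. *Cdc6*, the ATPase that joins ORC to recruit the helicase, stood at 44.7, 45.6 and 63.7 CPM in *Nf1*/*p53* dKO lines 1 to 3 and at 40.5, 40.8 and 30.4 CPM in *Nf1*/*Cdkn2a* dKO lines 1 to 3. Its 3 *Nf1*/*Cdkn2a* dKO lines were all below the *Nf1*/*p53* dKO lines, and its log2 fold change of -0.46 (SE 0.21, adjusted p = 0.251) became -0.27 without *Nf1*/*p53* dKO line 3. *Cdt1*, the loading factor that escorts MCM2-7 to origins, was likewise free of overlap, at 69.9, 72.5 and 65.4 CPM in *Nf1*/*p53* dKO lines 1 to 3 and at 56.7, 63.8 and 41.5 CPM in *Nf1*/*Cdkn2a* dKO lines 1 to 3. Here *Nf1*/*Cdkn2a* dKO line 3 was the low line, and without it the log2 fold change of *Cdt1* moved from -0.36 to -0.20. *Gmnn*, the inhibitor of *Cdt1*, was measured at 34.2, 27.2 and 48.7 CPM in *Nf1*/*p53* dKO lines 1 to 3 and at 29.9, 24.2 and 28.5 CPM in *Nf1*/*Cdkn2a* dKO lines 1 to 3. Its log2 fold change was -0.42, and -0.15 without *Nf1*/*p53* dKO line 3, with *Nf1*/*p53* dKO line 3 high and line 2 inside the range of the other genotype. *Orc1*, the ORC subunit whose level cycles, had 10.4, 8.60 and 17.6 CPM in *Nf1*/*p53* dKO lines 1 to 3 and 10.5, 11.4 and 7.73 CPM in *Nf1*/*Cdkn2a* dKO lines 1 to 3. The log2 fold change of *Orc1*, -0.31 (SE 0.33, adjusted p = 0.621), was 0.058 without *Nf1*/*p53* dKO line 3. *Orc6* was also highest in *Nf1*/*p53* dKO line 3 and lowest in *Nf1*/*Cdkn2a* dKO line 3, at 81.9, 60.7 and 125 CPM in *Nf1*/*p53* dKO lines 1 to 3 and at 75.9, 78.4 and 54.9 CPM in *Nf1*/*Cdkn2a* dKO lines 1 to 3, and its -0.35 on the log2 scale shrank to -0.025 without the former. *Orc2* went the other way among the *Nf1*/*p53* dKO lines, with line 3 the lowest of the 6, at 72.0, 80.0 and 40.1 CPM in *Nf1*/*p53* dKO lines 1 to 3 and at 53.5, 60.7 and 44.7 CPM in *Nf1*/*Cdkn2a* dKO lines 1 to 3. It had the smallest difference of the group, -0.27 (SE 0.28, adjusted p = 0.596), and -0.52 without *Nf1*/*p53* dKO line 3. Of the exon bases of *Orc2*, 29.8% are overlapped by *Nif3l1* on the opposite strand, and the sources used here do not say whether counting used strand.

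The 6 subunits of the MCM2-7 helicase, which form 1 ring, differed among themselves. All 6 were below 0, with 2 free of overlap, against 16.6% of all genes. Their median of -0.38 was -0.22 without *Nf1*/*p53* dKO line 3 and -0.24 without *Nf1*/*Cdkn2a* dKO line 3. *Mcm7* had 218, 204 and 329 CPM in *Nf1*/*p53* dKO lines 1 to 3 and 189, 157 and 149.7 CPM in *Nf1*/*Cdkn2a* dKO lines 1 to 3. The groups did not overlap, and the log2 fold change was -0.60 (SE 0.22, adjusted p = 0.183), with -0.35 without *Nf1*/*p53* dKO line 3. *Mcm3* was free of overlap too, at 214, 231 and 252 CPM in *Nf1*/*p53* dKO lines 1 to 3 and at 179, 156 and 126 CPM in *Nf1*/*Cdkn2a* dKO lines 1 to 3, and its log2 fold change of -0.60 stayed between -0.71 and -0.47 with any 1 line left out. *Mcm2* was found at 217, 165 and 282 CPM in *Nf1*/*p53* dKO lines 1 to 3 and at 177, 167 and 133 CPM in *Nf1*/*Cdkn2a* dKO lines 1 to 3, where *Nf1*/*p53* dKO line 2 lay among the *Nf1*/*Cdkn2a* dKO lines (log2 fold change -0.48, and -0.26 without *Nf1*/*p53* dKO line 3). *Mcm5* was high in 1 line, with 208, 158 and 305 CPM in *Nf1*/*p53* dKO lines 1 to 3 and 208, 199 and 146 CPM in *Nf1*/*Cdkn2a* dKO lines 1 to 3. Its log2 fold change of -0.28 (SE 0.27, adjusted p = 0.583) became 0.015 without *Nf1*/*p53* dKO line 3. *Mcm4* overlapped between the genotypes, at 204, 192 and 155 CPM in *Nf1*/*p53* dKO lines 1 to 3 and at 214, 173 and 158 CPM in *Nf1*/*Cdkn2a* dKO lines 1 to 3, and had the smallest log2 fold change of the ring, -0.017 (SE 0.18, adjusted p = 0.967). *Mcm6* overlapped too, with 206, 186 and 153 CPM against 198, 172 and 147 CPM and -0.079 (SE 0.18, adjusted p = 0.821). In both *Mcm4* and *Mcm6*, *Nf1*/*p53* dKO line 3 was below the other *Nf1*/*p53* dKO lines, and the sign turned with 1 of several lines left out, within -0.14 to 0.079 for *Mcm4* and -0.18 to 0.030 for *Mcm6*. On the scale of CPM per kilobase of exon, which allows levels to be compared between genes, the average over the 6 lines was 51.4 for *Mcm3*, 51.1 for *Mcm5*, 50.9 for *Mcm4*, 46.9 for *Mcm7*, 37.9 for *Mcm6* and 27.3 for *Mcm2*.

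Factors that switch the helicase on were below 0 in 8 of 8 cases, with a group median of -0.47 and 4 free of overlap, against 16.6% of all genes. The largest difference was that of *Mcm10*, which helps the active helicase to leave the origin (chr2:4989714-5012791, minus strand). It stood at 55.0, 57.3 and 90.4 CPM in *Nf1*/*p53* dKO lines 1 to 3 and at 39.6, 36.8 and 33.6 CPM in *Nf1*/*Cdkn2a* dKO lines 1 to 3. Every *Nf1*/*Cdkn2a* dKO line was below every *Nf1*/*p53* dKO line, the means were 67.6 ± 19.8 and 36.7 ± 2.98 CPM (SD, n = 3 lines), and the log2 fold change was -0.88 (SE 0.22, adjusted p = 0.0912). With any 1 line left out it stayed between -1.01 and -0.61, the latter without *Nf1*/*p53* dKO line 3. *Cdc7*, the kinase that phosphorylates MCM2-7, showed 23.6, 24.1 and 34.1 CPM against 19.1, 16.5 and 17.1 CPM, free of overlap (log2 fold change -0.63). Its activator *Dbf4* was at 87.2, 114 and 94.3 CPM in *Nf1*/*p53* dKO lines 1 to 3 and at 87.4, 80.3 and 66.5 CPM in *Nf1*/*Cdkn2a* dKO lines 1 to 3, with line 1 of each genotype level and a log2 fold change of -0.34, and -0.20 without *Nf1*/*p53* dKO line 2. *Cdc45*, the helicase cofactor, had 51.3, 56.5 and 46.6 CPM in *Nf1*/*p53* dKO lines 1 to 3 and 45.1, 33.0 and 36.6 CPM in *Nf1*/*Cdkn2a* dKO lines 1 to 3, with no overlap. Its log2 fold change of -0.43 grew to -0.49 without *Nf1*/*p53* dKO line 3, which was the lowest of its genotype here. The 4 GINS subunits, which bind *Cdc45* and the helicase in 1 complex, differed among themselves. *Gins1* was at 14.7, 15.2 and 25.9 CPM in *Nf1*/*p53* dKO lines 1 to 3 and at 13.0, 10.6 and 13.4 CPM in *Nf1*/*Cdkn2a* dKO lines 1 to 3, free of overlap, and its -0.59 on the log2 scale became -0.27 without *Nf1*/*p53* dKO line 3. *Gins3* rested on that line, with 15.6, 13.3 and 35.6 CPM in *Nf1*/*p53* dKO lines 1 to 3 and 16.0, 17.1 and 12.4 CPM in *Nf1*/*Cdkn2a* dKO lines 1 to 3. The log2 fold change of *Gins3*, -0.50 (SE 0.40, adjusted p = 0.501), turned to 0.074 without it. *Gins4* was at 52.7, 38.6 and 60.6 CPM in *Nf1*/*p53* dKO lines 1 to 3 and at 48.8, 39.5 and 34.1 CPM in *Nf1*/*Cdkn2a* dKO lines 1 to 3 (log2 fold change -0.31, -0.16 without *Nf1*/*p53* dKO line 3 and -0.19 without *Nf1*/*Cdkn2a* dKO line 3), with overlap through *Nf1*/*p53* dKO line 2. *Gins2*, with 29.2, 34.6 and 23.6 CPM against 28.8, 29.6 and 20.6 CPM, had the smallest difference, -0.15 (SE 0.22, adjusted p = 0.731), which turned to 0.0080 without *Nf1*/*p53* dKO line 2 and 0.0084 without *Nf1*/*Cdkn2a* dKO line 3. Of the exon bases of *Gins2*, 67.3% are overlapped by *Gse1* on the opposite strand, so its count is uncertain.

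Subunits of the replicative polymerases were lower in 7 of 9 cases, with a group median of -0.54 and 5 free of overlap, against 16.6% of all genes. *Pole*, the catalytic subunit of polymerase epsilon on the leading strand (chr5:110286306-110337474, plus strand), stood at 94.1, 84.2 and 97.6 CPM in *Nf1*/*p53* dKO lines 1 to 3 and at 65.0, 60.2 and 55.7 CPM in *Nf1*/*Cdkn2a* dKO lines 1 to 3. All *Nf1*/*Cdkn2a* dKO lines were lower, with means of 92.0 ± 6.94 and 60.3 ± 4.62 CPM (SD, n = 3 lines) and a log2 fold change of -0.61 (SE 0.13, adjusted p = 0.0664). It changed little with any 1 line left out, from -0.66 to -0.55. Its partner subunit *Pole2* overlapped between the genotypes, at 22.7, 16.4 and 19.3 CPM in *Nf1*/*p53* dKO lines 1 to 3 and at 21.5, 15.4 and 20.7 CPM in *Nf1*/*Cdkn2a* dKO lines 1 to 3. The log2 fold change of *Pole2* was -0.020 (SE 0.22, adjusted p = 0.968) and ran from -0.12 to 0.12 with 1 line left out. For polymerase delta, which extends the lagging strand, the catalytic *Pold1* was at 52.1, 62.6 and 83.1 CPM in *Nf1*/*p53* dKO lines 1 to 3 and at 48.6, 37.2 and 39.9 CPM in *Nf1*/*Cdkn2a* dKO lines 1 to 3, without overlap (log2 fold change -0.65). *Pold2*, its structural subunit, had 89.1, 90.8 and 134 CPM against 60.7, 69.8 and 64.5 CPM, again without overlap. It had the largest difference of the group, -0.69 (SE 0.19, adjusted p = 0.110), and -0.46 without *Nf1*/*p53* dKO line 3. *Pold3*, another subunit, was high in that line alone, with 18.9, 22.3 and 39.6 CPM in *Nf1*/*p53* dKO lines 1 to 3 and 22.6, 19.6 and 21.3 CPM in *Nf1*/*Cdkn2a* dKO lines 1 to 3. Its -0.35 (SE 0.30, adjusted p = 0.527) turned to 0.043 without it. For polymerase alpha-primase, which starts each new strand, the catalytic *Pola1* was at 70.2, 78.3 and 103 CPM in *Nf1*/*p53* dKO lines 1 to 3 and at 66.4, 53.7 and 48.5 CPM in *Nf1*/*Cdkn2a* dKO lines 1 to 3 and the primase *Prim1* at 61.4, 58.9 and 74.7 CPM in *Nf1*/*p53* dKO lines 1 to 3 and at 45.5, 38.6 and 50.0 CPM in *Nf1*/*Cdkn2a* dKO lines 1 to 3. Neither gene had an overlap between genotypes, with log2 fold changes of -0.58 and -0.54. The accessory subunits of the same complex, *Pola2* and *Prim2*, were not lower. *Pola2* was at 58.7, 49.5 and 73.5 CPM in *Nf1*/*p53* dKO lines 1 to 3 and at 72.1, 52.3 and 64.8 CPM in *Nf1*/*Cdkn2a* dKO lines 1 to 3, a log2 fold change of 0.057 (SE 0.20, adjusted p = 0.888) that went to -0.055 without *Nf1*/*p53* dKO line 2, to -0.042 without *Nf1*/*Cdkn2a* dKO line 1 and to -0.081 with raw total counts. *Prim2*, with 65.0, 49.9 and 36.6 CPM against 60.2, 50.1 and 70.9 CPM, was higher in the *Nf1*/*Cdkn2a* dKO by 0.26 on the log2 scale, with overlap and with *Nf1*/*p53* dKO line 3 the lowest of the 6. That value was 0.078 without this line, 0.13 without *Nf1*/*Cdkn2a* dKO line 3 and 0.48 without *Nf1*/*p53* dKO line 1.

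All 6 genes of the sliding clamp and its loader were lower in every *Nf1*/*Cdkn2a* dKO line than in any *Nf1*/*p53* dKO line, against 16.6% of all genes. Their median was -0.45, and 5 of the 6 were lower at an unadjusted p under 0.05, against 12.5% of all genes. Replication factor C places the clamp on DNA, and its small subunits *Rfc3* and *Rfc4* had the largest differences of the 50. *Rfc3* (chr5:151642756-151651242, minus strand) stood at 53.8, 50.2 and 76.0 CPM in *Nf1*/*p53* dKO lines 1 to 3 and at 34.4, 27.6 and 27.1 CPM in *Nf1*/*Cdkn2a* dKO lines 1 to 3. The means were 60.0 ± 14.0 and 29.7 ± 4.07 CPM (SD, n = 3 lines), 2.02-fold higher in the *Nf1*/*p53* dKO. The log2 fold change was -1.01 (SE 0.21, adjusted p = 0.0622), and -1.13 to -0.80 with any 1 line left out. *Rfc4* (chr16:23113943-23127737, minus strand) was at 24.3, 21.1 and 25.6 CPM in *Nf1*/*p53* dKO lines 1 to 3 and at 12.6, 12.3 and 13.3 CPM in *Nf1*/*Cdkn2a* dKO lines 1 to 3, and in this gene *Nf1*/*p53* dKO line 3 did not stand apart. Its means were 23.7 ± 2.33 and 12.7 ± 0.545 CPM (SD, n = 3 lines), with a log2 fold change of -0.89 (SE 0.17, adjusted p = 0.0543) that stayed between -0.96 and -0.83 with any 1 line left out. *Eif4a2* overlaps 12.7% of the exon bases of *Rfc4* on the opposite strand. *Rfc1*, the large subunit, was at 108, 114 and 154 CPM in *Nf1*/*p53* dKO lines 1 to 3 and at 91.9, 90.6 and 82.8 CPM in *Nf1*/*Cdkn2a* dKO lines 1 to 3 (log2 fold change -0.51, and -0.33 without *Nf1*/*p53* dKO line 3). *Rfc5* showed 67.9, 70.9 and 87.4 CPM against 62.4, 59.5 and 50.0 CPM, with -0.40 on the log2 scale. *Rfc2* varied least within the *Nf1*/*p53* dKO, at 76.0, 75.6 and 76.7 CPM in *Nf1*/*p53* dKO lines 1 to 3 and at 65.7, 59.9 and 59.7 CPM in *Nf1*/*Cdkn2a* dKO lines 1 to 3. Its difference was the smallest of the group, -0.30 (SE 0.12, adjusted p = 0.193), yet it moved only between -0.34 and -0.27 with any 1 line left out. *Pcna*, the clamp itself, was at 198, 189 and 278 CPM in *Nf1*/*p53* dKO lines 1 to 3 and at 184, 175 and 169 CPM in *Nf1*/*Cdkn2a* dKO lines 1 to 3. The difference of -0.33 on the log2 scale became -0.13 without *Nf1*/*p53* dKO line 3. At 92.4 CPM per kilobase over the *Nf1*/*p53* dKO lines and 73.3 over the *Nf1*/*Cdkn2a* dKO lines it had the highest level per length of the 50 genes, although 2 *Pcna* pseudogenes in the table may share its reads.

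**Figure D3:**
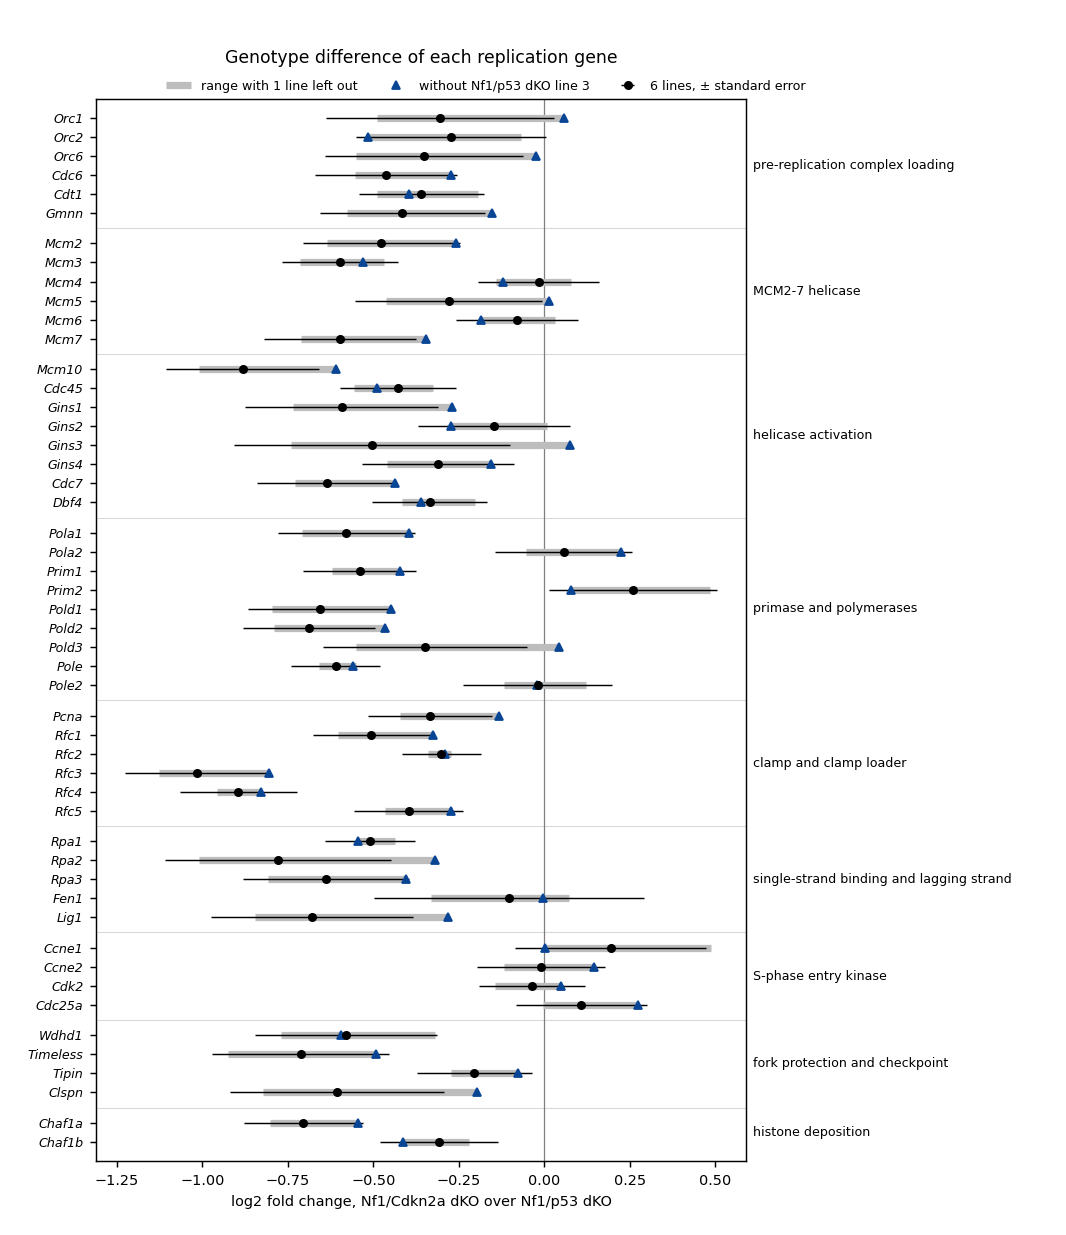
Log2 fold change (Nf1/Cdkn2a dKO over Nf1/p53 dKO, below 0 is lower in the Nf1/Cdkn2a dKO) of each of the 50 genes, with its standard error (black), the range over the 6 fits with 1 line left out (gray) and the value without Nf1/p53 dKO line 3 (blue). Rfc3, Rfc4, Mcm10, Pole and Chaf1a stay below -0.5 throughout, and 13 genes cross 0. With raw total counts in place of TMM the points of Pola2 and Cdc25a lie below 0.

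Single-strand binding and lagging-strand genes had the lowest group median, -0.64, which was -0.32 without *Nf1*/*p53* dKO line 3. Replication protein A coats single-stranded DNA as a complex of 3 subunits. *Rpa1*, the large subunit, was at 266, 254 and 238 CPM in *Nf1*/*p53* dKO lines 1 to 3 and at 187, 161 and 184 CPM in *Nf1*/*Cdkn2a* dKO lines 1 to 3, without overlap and with *Nf1*/*p53* dKO line 3 the lowest of its genotype. Its log2 fold change was -0.51 and stayed between -0.55 and -0.44 with any 1 line left out. *Rpa2* had a different shape, at 44.7, 55.7 and 106 CPM in *Nf1*/*p53* dKO lines 1 to 3 and at 43.7, 34.6 and 41.9 CPM in *Nf1*/*Cdkn2a* dKO lines 1 to 3, so that *Nf1*/*p53* dKO line 1 lay just above the nearest *Nf1*/*Cdkn2a* dKO line. A log2 fold change of -0.78 (SE 0.33, adjusted p = 0.230) for *Rpa2* became -0.32 without *Nf1*/*p53* dKO line 3. *Rpa3* was at 18.9, 24.3 and 32.7 CPM in *Nf1*/*p53* dKO lines 1 to 3 and at 16.7, 17.7 and 14.4 CPM in *Nf1*/*Cdkn2a* dKO lines 1 to 3, with -0.64 on the log2 scale, -0.41 without *Nf1*/*p53* dKO line 3, and no overlap. *Lig1*, the ligase that joins Okazaki fragments, was at 102, 93.8 and 189 CPM in *Nf1*/*p53* dKO lines 1 to 3 and at 90.8, 67.4 and 82.4 CPM in *Nf1*/*Cdkn2a* dKO lines 1 to 3. It had no overlap either, and its -0.68 shrank to -0.28 without *Nf1*/*p53* dKO line 3. *Fen1*, the flap nuclease of the lagging strand, was listed at 0.967, 0.665 and 0.982 CPM in *Nf1*/*p53* dKO lines 1 to 3 and at 0.770, 1.05 and 0.610 CPM in *Nf1*/*Cdkn2a* dKO lines 1 to 3, or 2 to 30 counts per culture. These counts are uncertain, because 78.8% of its exon bases are overlapped on the opposite strand by *Gm10143*, listed at 1 to 36 counts per culture, and 5.4% by *Tmem258*. The log2 fold change of *Fen1* was -0.10 (SE 0.39, adjusted p = 0.898), turned to 0.071 without *Nf1*/*Cdkn2a* dKO line 3 and was 0.15 in limma-voom with lines as random effects.

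The S-phase entry kinase genes were the 1 role group without a lower median, at 0.049. Of its 4 genes 0 were free of overlap, where 16.6% of all genes were so with the *Nf1*/*Cdkn2a* dKO lower. Without *Nf1*/*p53* dKO line 1 this median was -0.038. Cyclin E and *Cdk2* drive entry into S phase, and *Cdc25a* removes the phosphate that holds *Cdk2* back. *Ccne1* was at 46.1, 66.2 and 34.6 CPM in *Nf1*/*p53* dKO lines 1 to 3 and at 63.8, 61.6 and 42.7 CPM in *Nf1*/*Cdkn2a* dKO lines 1 to 3. It was higher in the *Nf1*/*Cdkn2a* dKO by 0.19 (SE 0.28, adjusted p = 0.714), with *Nf1*/*p53* dKO line 3 the lowest of the 6, and by 0.0012 without that line and 0.49 without *Nf1*/*p53* dKO line 2. *Ccne2* was at 30.9, 30.3 and 40.7 CPM in *Nf1*/*p53* dKO lines 1 to 3 and at 38.8, 30.0 and 32.3 CPM in *Nf1*/*Cdkn2a* dKO lines 1 to 3, a log2 fold change of -0.011 (SE 0.19, adjusted p = 0.980) that ran from -0.12 to 0.14. *Cdk2* was at 49.2, 49.5 and 57.9 CPM in *Nf1*/*p53* dKO lines 1 to 3 and at 47.2, 46.8 and 58.7 CPM in *Nf1*/*Cdkn2a* dKO lines 1 to 3, with -0.036 (SE 0.15, adjusted p = 0.910) and a range of -0.14 to 0.049. In *Cdk2* line 3 of each genotype was the high line. *Cdc25a* was at 46.6, 52.8 and 67.3 CPM in *Nf1*/*p53* dKO lines 1 to 3 and at 58.7, 69.1 and 51.9 CPM in *Nf1*/*Cdkn2a* dKO lines 1 to 3. Its log2 fold change of 0.11 (SE 0.19, adjusted p = 0.770) became -0.0037 without *Nf1*/*p53* dKO line 1, -0.0011 without *Nf1*/*Cdkn2a* dKO line 2, 0.27 without *Nf1*/*p53* dKO line 3 and -0.025 with raw total counts. Medians of this group against the others were not tested.

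Fork protection and checkpoint genes had a median of -0.59, and -0.35 without *Nf1*/*p53* dKO line 3. Of the 4, 4 were below 0 and 1 was free of overlap, against 16.6% of all genes. *Timeless*, which with *Tipin* couples the helicase to the polymerases, was at 56.0, 51.6 and 79.7 CPM in *Nf1*/*p53* dKO lines 1 to 3 and at 36.7, 28.8 and 48.8 CPM in *Nf1*/*Cdkn2a* dKO lines 1 to 3. The low line was *Nf1*/*Cdkn2a* dKO line 2, the log2 fold change was -0.71 (SE 0.26, adjusted p = 0.175), and with any 1 line left out it was -0.93 to -0.49. *Tipin* itself was at 69.9, 69.4 and 88.3 CPM in *Nf1*/*p53* dKO lines 1 to 3 and at 72.5, 69.4 and 55.6 CPM in *Nf1*/*Cdkn2a* dKO lines 1 to 3, with the smallest difference of the group, -0.20 (SE 0.17, adjusted p = 0.514), which was -0.077 without *Nf1*/*p53* dKO line 3 and -0.090 without *Nf1*/*Cdkn2a* dKO line 3. *Clspn*, the mediator of the replication checkpoint, was at 51.7, 63.8 and 114 CPM in *Nf1*/*p53* dKO lines 1 to 3 and at 56.3, 41.1 and 53.2 CPM in *Nf1*/*Cdkn2a* dKO lines 1 to 3. *Nf1*/*p53* dKO line 3 stood apart, and the log2 fold change of -0.61 became -0.20 without it. *Wdhd1*, which links polymerase alpha to the helicase, was carried by another line, at 91.5, 48.1 and 66.9 CPM in *Nf1*/*p53* dKO lines 1 to 3 and at 54.2, 46.9 and 37.1 CPM in *Nf1*/*Cdkn2a* dKO lines 1 to 3. Its -0.58 on the log2 scale became -0.32 without *Nf1*/*p53* dKO line 1 and -0.59 without *Nf1*/*p53* dKO line 3.

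Both large subunits of chromatin assembly factor 1, which deposits histones behind the fork, were below 0. *Chaf1a* (chr17:56040439-56072289, plus strand) was at 83.3, 90.5 and 116 CPM in *Nf1*/*p53* dKO lines 1 to 3 and at 65.1, 60.2 and 52.8 CPM in *Nf1*/*Cdkn2a* dKO lines 1 to 3, with means of 96.7 ± 17.4 and 59.4 ± 6.22 CPM (SD, n = 3 lines). The groups did not overlap, the log2 fold change was -0.70 (SE 0.17, adjusted p = 0.0871), and it stayed between -0.80 and -0.55 with any 1 line left out. *Ubxn6* overlaps 52.5% of the exon bases of *Chaf1a* on the opposite strand, so that its count is uncertain as well. *Chaf1b* was at 41.1, 41.1 and 32.1 CPM in *Nf1*/*p53* dKO lines 1 to 3 and at 34.3, 30.8 and 27.3 CPM in *Nf1*/*Cdkn2a* dKO lines 1 to 3, with overlap, and its log2 fold change was -0.31 (SE 0.17, adjusted p = 0.337).

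*Rfc3*, *Rfc4*, *Mcm10*, *Pole* and *Chaf1a* were the 5 genes of the 50 that had no overlap and a log2 fold change of -0.5 or lower in every fit with 1 line left out. Of all genes tested, 16.6% had no overlap with the *Nf1*/*Cdkn2a* dKO lower. The share of all genes that also met the second condition was not computed. The single cultures of these 5 genes were apart too. The genes were chosen on the sums of these same cultures, so this adds no separate support. Cultures of 1 line share a tumor and are not replicates of a genotype. *Rfc4* ranged over 19.6 to 29.4 CPM in the *Nf1*/*p53* dKO cultures and 9.29 to 15.9 CPM in *Nf1*/*Cdkn2a* dKO lines 1 to 3 cultures. The 9 cultures of 1 genotype also did not meet those of the other for *Rfc3*, with 49.0 to 77.3 CPM in the *Nf1*/*p53* dKO cultures and 24.2 to 37.3 CPM in *Nf1*/*Cdkn2a* dKO lines 1 to 3 cultures. *Pole* came closest, with 82.6 to 101 CPM in the *Nf1*/*p53* dKO cultures and 53.7 to 79.3 CPM in *Nf1*/*Cdkn2a* dKO lines 1 to 3 cultures, since 1 culture of *Nf1*/*Cdkn2a* dKO line 1 stood above the rest of its genotype. At the other end, 13 genes had the opposite sign with some line left out (*Orc1*, *Mcm4*, *Mcm5*, *Mcm6*, *Gins2*, *Gins3*, *Pola2*, *Pold3*, *Pole2*, *Fen1*, *Ccne2*, *Cdk2* and *Cdc25a*). Of these, *Orc1*, *Mcm5*, *Gins3*, *Pold3*, *Ccne2* and *Cdk2* did so when *Nf1*/*p53* dKO line 3 was the line removed.

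**Figure D4:**
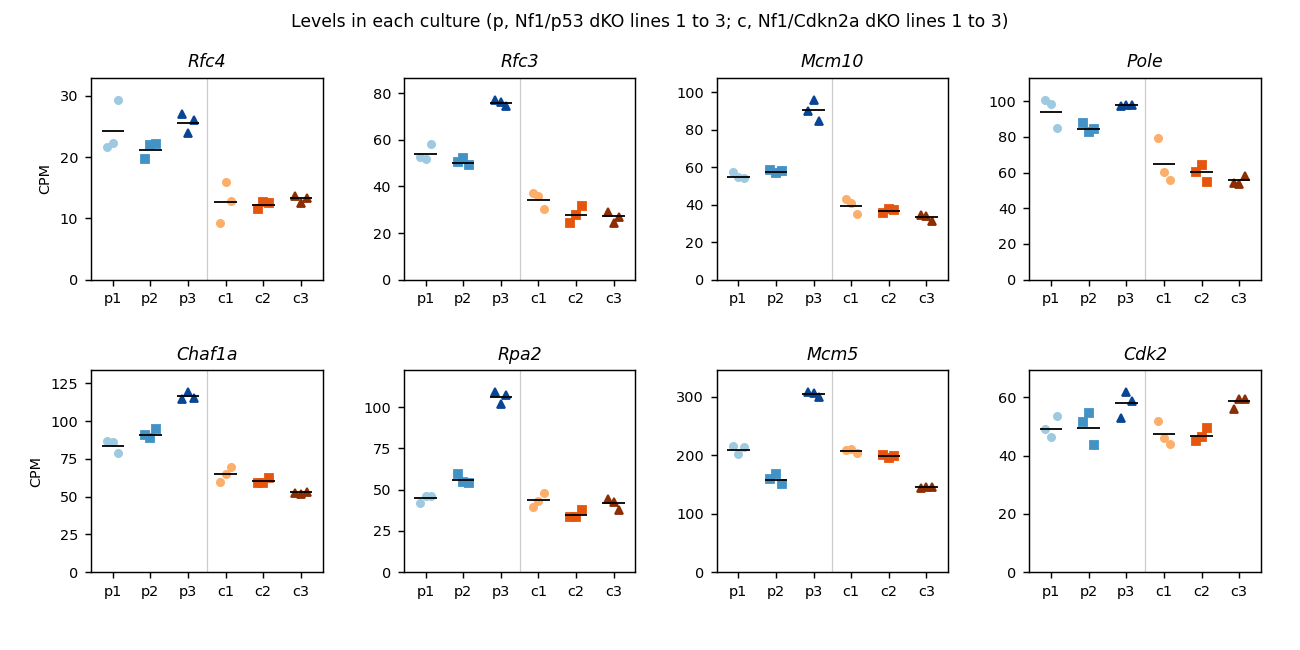
CPM of 8 replication genes in each of the 18 cultures (3 points per line), with the value of the summed line as a bar, for Nf1/p53 dKO lines 1 to 3 (p1 to p3) and Nf1/Cdkn2a dKO lines 1 to 3 (c1 to c3). Rfc4, Rfc3, Mcm10, Pole and Chaf1a are lower in all 3 Nf1/Cdkn2a dKO lines, Rpa2 and Mcm5 are high mainly in p3, and Cdk2 overlaps between the genotypes.

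Other genes of replication, 40 in all from lists of origin factors, polymerase and loader subunits, nucleotide supply, chromatin and checkpoint genes, were read from the same fit. Of the 40, 32 were below 0, where 51.8% of all genes tested were. With the *Nf1*/*Cdkn2a* dKO lower, 17 were free of overlap, against 16.6% of all genes. The median of the 40 was -0.38, and -0.14 without *Nf1*/*p53* dKO line 3. In edgeR's test on the 6 lines, which called 1.8% of all genes, 1 of the 40 passed, *Mtbp*, a partner of the origin-firing factor *Ticrr*. With raw total counts 3 of the 40 passed, with DESeq2 on the 6 lines 6, with limma-voom 10 and with edgeR and DESeq2 on the 18 cultures 24 each, where 2.78%, 12%, 16.6%, 46.5% and 39.3% of all genes were called. *Mtbp* was at 64.8, 58.5 and 94.3 CPM in *Nf1*/*p53* dKO lines 1 to 3 and at 32.7, 22.7 and 24.4 CPM in *Nf1*/*Cdkn2a* dKO lines 1 to 3 (log2 fold change -1.45, SE 0.24, adjusted p = 0.0465 in edgeR's test). With any 1 line left out its value stayed between -1.61 and -1.21, but its adjusted p was then 0.0717 to 0.144, so that the call rests on all 6 lines. The lowest value of the 40 was that of *Dscc1*, a subunit of an alternative clamp loader, with a log2 fold change of -1.56 (SE 0.36, adjusted p = 0.0793). The highest was that of *Atrip*, the partner of the checkpoint kinase *Atr*, at 0.19 (SE 0.19, adjusted p = 0.599).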

How the data were processed

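RNA-seq read counts from 18 libraries (3 cultures of each of 6 lines) were analysed. The deposited values are counts of reads per gene in each library, whole numbers that the authors had not normalized. Per the submitters' processing notes, the tools named are CASAVA, STAR 2.5 and DESeq2 1.14.1, with the builds GRCm38 and mm10. The counting tool, its annotation and its use of strand are not given in the sources used here, and reads of overlapping genes or of pseudogenes may be split or lost.

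Columns took their genotype, line and culture from their names. The 3 cultures of each line were added up because they stem from a single tumor, which makes lines the replicates. The median total count per library was 23149777. A gene with few counts, such as *Fen1*, is measured with more counting error than the others. Genes were kept with filterByExpr of edgeR (at least 10 counts, and 15 in total). TMM gave the library factors. The quasi-likelihood test of edgeR 4.0.16 was run under R 4.3.3, and p was adjusted by Benjamini-Hochberg over all 15207 genes tested. The alternatives used limma 3.58.1 and DESeq2 1.42.0. A log2 fold change above 0 is higher in the *Nf1*/*Cdkn2a* dKO, and the threshold was an adjusted p under 0.05. Means and SDs of CPM are over the 3 lines of a genotype. P-values measure the spread between these lines, which the labels number 3 per genotype, although the study's methods also speak of 2 biological replicates.

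Overlap between genotypes was judged on the CPM of the 6 lines. Fits were repeated with each line left out, with 18 cultures, with DESeq2, with other scalings and filters, and with the line or culture number as a block. The scaling to raw total counts was added after seeing the data. Of these steps, only the edgeR fit on the 6 lines was tried on simulated data. The changes simulated were larger than those of most of the 50 genes. Full statistics are given to the largest and the smallest log2 fold change of each role group, to genes without overlap that stay beyond 0.5 with any 1 line left out, and to genes whose sign turns. The 50 genes, their role groups, the other lists and the tests were chosen with earlier results of these data known.

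Gene positions and overlaps are from GENCODE M21 (GRCm38), and 34490 of the 35275 genes are in it. Promoter windows are from RefSeq (GRCm38.p6), 250 bases before to 50 after a start, and both strands were searched for TTTNNCGC and CCAAT. Plots were drawn with matplotlib 3.10.9 in Python 3.11.15.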

Additional observations from a re-analysis of the deposited data

Results flagged for a closer look

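Over 102 groups of 9 cultures of a genotype (the total count and the CPM of each of the 50 genes), 3 held a culture far from the others by Dixon's criterion for 9 values, where chance gives about 1 in 20 of independent samples, and the cultures of a line are not independent. The total count of *Nf1*/*p53* dKO line 1 culture 2 was 28312207, against 23853595 in the next of its genotype. *Fen1* in *Nf1*/*p53* dKO line 2 culture 2 was at 0.0830 CPM, against 0.804 CPM in the next, with 2 counts behind it. *Pole* in *Nf1*/*Cdkn2a* dKO line 1 culture 1 was at 79.3 CPM, against 64.3 CPM in the next, and remained below all 9 *Nf1*/*p53* dKO cultures. No explanation was tested for these values.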

How the results depend on the processing

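The direction of 37 of the 50 genes held in all 17 alternatives, and of 850 values of single genes 28 had the opposite sign, 122 passed the threshold and 700 stayed on the same side. The median of the 50 genes stayed below 0 throughout. Genes called over the whole table were 274, and 0 to 172 with 1 line left out, 423 with raw total counts, 6096 and 7186 with edgeR and DESeq2 on the 18 cultures, 2173 with limma-voom and the line as a random effect and 2060 with DESeq2 on the 6 lines. Replication genes called were 0, and 3, 32, 32, 17 and 6 in the same order after the fits with 1 line left out, which called 0. The 18-culture fits count cultures of 1 tumor as separate samples, and the cause of the other differences was not tested.

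The line number and the culture number mark no shared animal or batch in the labels. Deviations from the genotype mean correlated at -0.0988, -0.133 and -0.0848 between lines 1, 2 and 3 of the genotypes, and cultures of the same number at a median of 0.000660. Whether samples of the same number shared a batch was not tested. With the line number as a replicate block, 0 genes were called in all and 0 of the 50. With the culture number as a replicate block on the 18 cultures, 5681 genes and 32 of the 50 were called.

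With 1 line left out, the log2 fold change ran from -0.49 to 0.058 for *Orc1*, -0.14 to 0.079 for *Mcm4*, -0.46 to 0.015 for *Mcm5*, -0.18 to 0.030 for *Mcm6*, -0.27 to 0.0084 for *Gins2*, -0.74 to 0.074 for *Gins3*, -0.055 to 0.23 for *Pola2*, -0.55 to 0.043 for *Pold3*, -0.12 to 0.12 for *Pole2*, -0.33 to 0.071 for *Fen1*, -0.12 to 0.14 for *Ccne2*, -0.14 to 0.049 for *Cdk2* and -0.0037 to 0.27 for *Cdc25a*. Raw total counts gave -0.081 for *Pola2* and -0.025 for *Cdc25a*, and limma-voom 0.15 for *Fen1*. Counts were fewest for *Fen1*, at 2 to 30 per culture, where the other 49 genes had at least 145 in every culture. *Gm10143* overlaps 78.8% of the exon bases of *Fen1* on the opposite strand, and the cause of its low counts was not tested.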

Other observations

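The genes of DNA supply and of replication-coupled chromatin, which the account of the 50 genes does not name, were read from the same fit. Of 6 nucleotide supply genes, 5 were below 0, with a median log2 fold change of -0.39, and -0.19 without *Nf1*/*p53* dKO line 3. *Rrm2*, a subunit of ribonucleotide reductase, had the highest value of that list, 0.17 (SE 0.17, adjusted p = 0.572). Of 6 chromatin genes, 5 were below 0, with a median of -0.51, and -0.18 without *Nf1*/*p53* dKO line 3. *Rrm2* was chosen after its values were seen.

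Position in the genome was examined after the values were seen. On GENCODE M21, 19 chromosomes were counted, which are not all chromosomes of the mouse. Among them the median log2 fold change of all genes tested ran from -0.50 on chromosome 3 to 0.30 on chromosome 19. It was -0.38 on chromosome 15. The 50 genes lie on 17 of the chromosomes counted, with 0 on chromosomes 3 and 15. Of the 50, 47 were below the median of their own chromosome, and the median distance over the 50 was -0.41. The lowest 3 of the 40 other replication genes, *Dscc1* (-1.56), *Mtbp* (-1.45) and *Recql4* (-1.39), all lie on chromosome 15, and *Recql4* was named after its values were seen (chr15:55076099-55090491, chr15:55557408-55626423 and chr15:76703553-76710548).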
